A study of Mus musculus with 40 samples.

Results

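The comparison of diabetic and non-diabetic mice that both received MitoQ was examined in RNA from the renal cortex. Heterozygous Ins2-Akita mice (Akita) were set against wild type (WT) littermates, all male and on the C57BL/6J strain, and both groups received MitoQ in a water vehicle. The treatment text of the labels, which is the same for all samples and names only MitoGamide and its ethanol vehicle, gives daily oral gavage from 6 weeks of age and an end at 22 weeks. The dose of MitoQ, and whether its route and timing were the same, are not given in the sources used here. Members were the 18143 genes, of 55401 in the table, with a mean of at least 10 estimated counts over the 10 libraries of these 2 groups (5 mice each), out of 40 libraries in 8 groups. The other 6 groups, used only to show where the comparison differs, were Akita and WT mice given water, a vehicle of ethanol in water, or MitoGamide in that ethanol vehicle. The design asks whether the response of the cortex to diabetes differs when a mitochondria-targeted antioxidant is given.

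The Akita allele changes 1 copy of Ins2 so that the insulin precursor misfolds in pancreatic beta cells, which leaves the mice short of insulin and diabetic without obesity. The renal cortex is made up mostly of proximal tubules, which reabsorb the filtered glucose, amino acids and phosphate, take up and oxidise fatty acids and carry many detoxifying enzymes. MitoQ is an antioxidant made of the quinone group of coenzyme Q joined to a lipophilic cation that carries it into mitochondria. Because the Akita allele is a point change in a gene of the pancreas, the level of Ins2 does not check the genotype labels (0 or 1 count in each of the 10 libraries).

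The Akita libraries held between 14599613 and 17903654 estimated counts (median 15723534) and the WT libraries between 9179473 and 17653858 (median 11918426). WT replicate 3 stood apart. It was the shallowest library, 46.6% of its counts lay on the mitochondrial ribosomal RNAs mt-Rnr1 and mt-Rnr2 against 20.02% to 31.8% in the other 9, and CT010467.1 took 16.6% of its counts against at most 3.83% elsewhere. Its TMM scaling factor was 0.525, against 0.971 to 1.20 in the others. Akita replicate 4 held little Kap, an abundant androgen-regulated transcript of the proximal tubule. The level there was 120 CPM (counts scaled by library size and TMM factor), against 3175 to 5098 CPM in the other Akita libraries. Markers of S1 and S2 proximal tubule (12 of 12 tested), podocytes (13 of 13) and endothelium (10 of 10) were all present, whereas 0 of 7 skeletal muscle markers, 1 of 7 adipocyte markers and 1 of 8 pancreas markers reached the count minimum. Of the liver markers 7 of 9 reached it, and of the red cell markers 6 of 7.

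Under MitoQ, 101 genes differed between Akita and WT mice, 48 higher and 53 lower in Akita. These are 0.557% of the genes tested, 0.265% in the higher and 0.292% in the lower direction. A call means a Benjamini-Hochberg adjusted p under 0.05 in edgeR's quasi-likelihood test over all genes tested, and fold changes are log2 differences, Akita minus WT, with their standard error (SE). Among the called genes the size of the log2 difference had a median of 1.48 and ran from 0.50 to 6.82, and 73 of them exceeded 1. An unadjusted p under 0.05 was reached by 1644 genes (9.06%). The values of the 5 Akita and the 5 WT mice did not overlap for 99 of the called genes (47 higher and 52 lower), as was so for 2.85% of all genes tested, and the exceptions were Ftcd and Anxa13. Called genes included 87 protein-coding genes, 47 higher and 40 lower.

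The count of called genes rested on single libraries. Without WT replicate 3 it rose to 270 (114 higher, 156 lower, 1.47% of 18371 genes tested), and these included all 101 genes with 0 changes of direction. Without Akita replicate 5 it was 35, and without WT replicates 1, 2, 4 or 5 it was 51, 57, 57 and 48, whereas leaving out any of the other 4 Akita libraries gave 78 to 84. In each of these 10 fits every one of the 101 genes that was still tested kept its direction. Of the 40 genes named here by rule, 24 were called in all 10 fits. Lpl, Slc5a10, Kif20b and Mdk lost the call only without Akita replicate 5 (adjusted p of 0.05111 and 0.05167, each for a pair of these genes), Cyp27b1 without it or WT replicate 1, and C1qtnf3 without it or WT replicates 1 or 5.

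**Figure D1:**
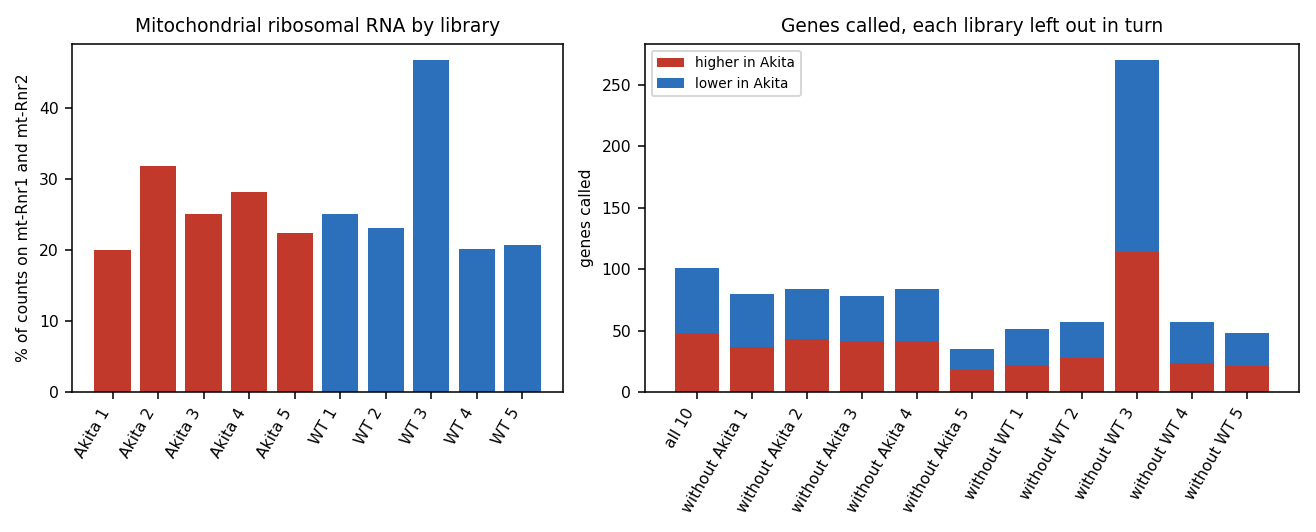
Left, the percentage of each MitoQ library's counts on mt-Rnr1 and mt-Rnr2 (y axis, percent) by library (x axis). Right, the number of genes called (y axis) with all 10 libraries and with each library left out in turn, stacked by direction. WT replicate 3 holds 46.6% and its removal gives 270 calls, against 101 with all libraries and 35 without Akita replicate 5.

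The lowest p belonged to genes that fell. Il34, on chr8:110741829-110805924 of GRCm38 (minus strand), encodes interleukin 34, a ligand of the macrophage receptor Csf1r that tubular cells produce. Its level in Akita replicates 1 to 5 was 1.78, 1.70, 1.78, 1.36 and 1.22 CPM, against 8.03, 9.45, 7.07, 9.07 and 8.77 CPM in WT. All WT mice, replicate 3 included, lay above all Akita mice. The log2 difference was -2.44 (SE 0.16, adjusted p = 5.286e-05, edgeR). Ces1g, a carboxylesterase of lipid and drug hydrolysis (chr8:93302369-93337308), stood between 0.611 and 1.27 CPM in the Akita mice and between 10.8 and 26.2 CPM in the WT mice, with WT replicate 4 at the top. It was lower by a log2 difference of -3.93 (SE 0.29, adjusted p = 7.771e-05, edgeR). Both calls held without each of the 10 libraries.

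Cntnap5a, a contactin-associated membrane protein best known from the nervous system, ranged from 0.277 to 1.20 CPM among Akita mice and from 7.10 to 9.16 CPM among WT mice (log2 difference -3.84). Nalcn, a sodium leak channel, was at 0.182 to 0.814 against 2.73 to 6.87 CPM (-3.11), and Col19a1, a nonfibrillar collagen, at 0.243 to 1.17 against 3.61 to 8.95 CPM (-3.32). These genes were near the detection limit in Akita mice, where AA536875 had no count in 1 of 5 libraries. Its level reached at most 0.283 CPM among Akita mice and at least 3.27 CPM among WT mice (-4.68). Rnf180 (-2.28), Ttbk1 (-1.37), Spats2l (-1.43) and Selenbp2 (-1.42) completed the 10 lower genes with a symbol and the smallest p (predicted genes and pseudogenes are counted and not named), and each was called without any one library. Selenbp2 and Ces1g have near copies in the genome, between which kallisto can divide reads.

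Among genes that rose, the smallest p was that of Ugt1a10 (chr1:88055388-88219004, plus strand), an enzyme that couples glucuronic acid to drugs and steroids. Its 5 Akita values were 18.5, 21.2, 24.5, 64.4 and 41.3 CPM and its 5 WT values 2.30, 1.35, 0.416, 1.37 and 2.65 CPM. Akita replicate 4 was the highest and WT replicate 3 the lowest, and the other 8 libraries did not overlap either. The log2 difference was 4.25 (SE 0.43, adjusted p = 0.0009382, edgeR). Ugt1a genes share their later exons, so that reads of the family can be divided among its members. Kynu, the kynureninase of tryptophan breakdown (chr2:43555329-43682715), had 39.2, 19.7, 21.3, 40.2 and 34.1 CPM in Akita and 3.66, 7.53, 6.66, 6.02 and 4.23 CPM in WT. Every Akita mouse lay above every WT mouse, by a log2 difference of 2.48 (SE 0.26, adjusted p = 0.00111, edgeR). Bhmt, which passes a methyl group from betaine to homocysteine, was higher by 2.26 (9.57 to 26.4 against 2.91 to 4.26 CPM, adjusted p = 0.00111, edgeR).

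Sgk1, the kinase through which aldosterone raises sodium uptake (chr10:21882184-21999903), also rose. Its values were 149, 130, 149, 124 and 145 CPM in Akita and 68.8, 37.6, 42.4, 39.3 and 55.7 CPM in WT. No WT mouse came near the lowest Akita mouse, and the log2 difference was 1.51 (SE 0.17, adjusted p = 0.001827, edgeR). Slc38a3, a glutamine transporter of the basolateral membrane, rose from 15.2 ± 4.32 to 46.7 ± 11 CPM (mean ± SD, n = 5; log2 difference 1.60), and Acnat1, an enzyme of peroxisomal acyl conjugation with a near copy, by 0.79. Aldh1a1, which oxidises retinaldehyde, rose from 4.90 ± 1.01 to 19.8 ± 7.78 CPM (2.01).

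**Figure D2:**
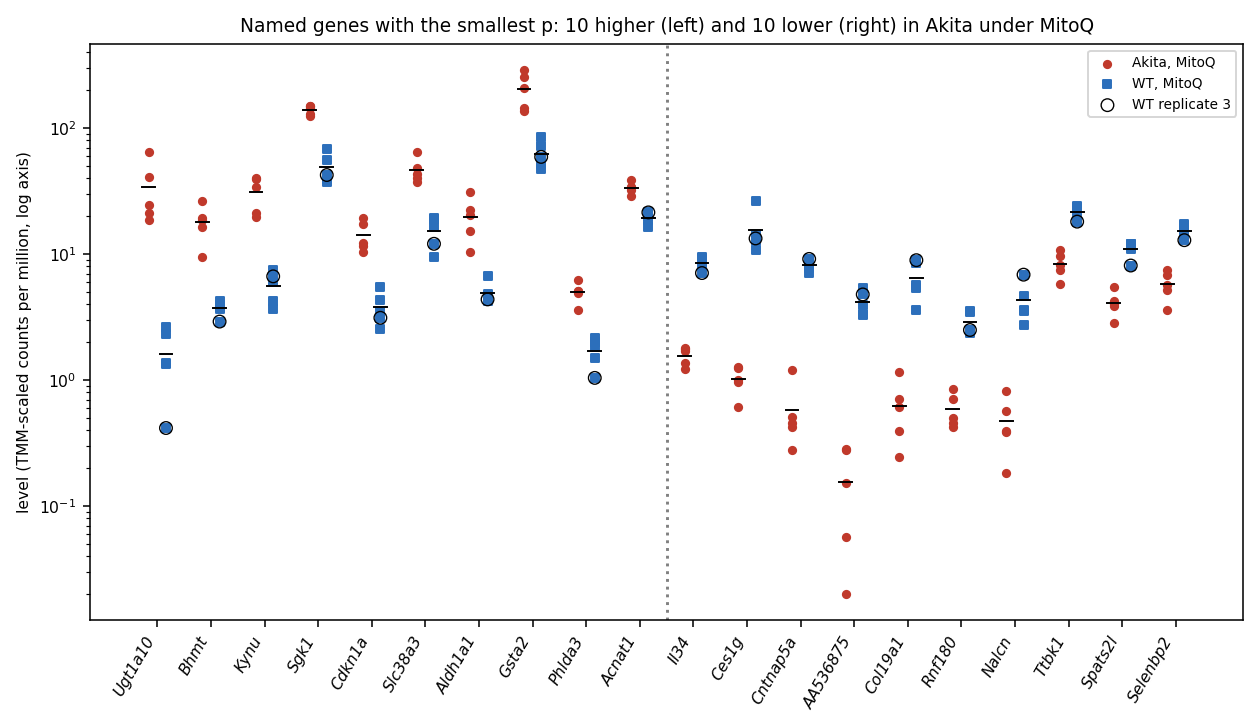
Levels (y axis, TMM-scaled CPM, log axis) of the 10 higher and the 10 lower genes with the smallest p (x axis; predicted genes and pseudogenes left out) in 5 Akita (circles) and 5 WT (squares) mice under MitoQ, with black bars for group means and rings around WT replicate 3. The single Akita value of 0 for AA536875 is drawn at the lowest point. Only genes whose groups did not overlap were eligible, so that in each of the 20 genes all Akita values lie on one side of all WT values.

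The called genes of the antioxidant and NRF2 list all rose. Of 48 tested members, 3 were higher and 0 lower, against 0.265% of all genes higher, and 36 of 48 had a log2 difference above 0. The list's median was 0.14, with -0.0014 over all genes tested, and it moved to 0.02 without WT replicate 3, to 0.09 without Akita replicate 1 and to 0.23 without WT replicate 2 or 4. DESeq2, an alternative test that called 2.29% of all genes, 1.12% higher and 1.16% lower, had 4 higher and 0 lower in this list. Gsta2, a glutathione transferase, had 253, 138, 143, 289 and 208 CPM in Akita and 51.9, 84.4, 59.1, 71.6 and 47.3 CPM in WT. No WT mouse reached the lowest Akita value, and the log2 difference was 1.71 (SE 0.24, adjusted p = 0.007402, edgeR). Ephx1, the microsomal epoxide hydrolase, rose by 1.26 (SE 0.18), and Abcc4, an exporter of organic anions and cyclic nucleotides, by 1.20 (SE 0.24). The call of Abcc4 (adjusted p = 0.04901, edgeR) was lost without any of 7 libraries, Akita replicate 4 among them, which had its highest level. Nqo1 (log2 difference 0.50, 95% interval 0.11 to 0.89) and Hmox1 (0.55, 0.14 to 0.96), classical NRF2 targets, were not called, with adjusted p of 0.3544 and 0.3163 in edgeR.

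Mt1 and Mt2, neighbouring metallothionein genes that bind zinc and copper, also rose together and were singled out after their values were seen. Mt1 stood at 36.1, 25.5, 20.6, 45.4 and 39.5 CPM in the Akita mice and at 11.8, 13.5, 8.32, 15.0 and 10.97 CPM in WT, and Mt2 ranged from 9.26 to 23.7 CPM in Akita mice and from 3.75 to 7.63 CPM in WT mice. Neither gene's groups overlapped. Their log2 differences were 1.47 (SE 0.22, adjusted p = 0.01027) and 1.70 (SE 0.28, adjusted p = 0.01746, edgeR).

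The 250 bases before the RefSeq start of these genes (GRCm38.p6, 5′ to 3′ on the gene's strand) are shown because each of the 5 genes was called higher. Capitals mark the antioxidant response element core TGACNNNGC in Abcc4 and Mt2, and the metal response element core, TGCACNC or TGCGCNC, in Mt1 and Mt2, each on either strand. The Gsta2 and Ephx1 windows hold no antioxidant core and so no capitals. Both lie inside the genes' GENCODE spans, whose upstream ends are at 78355788 and 181020904. Sequence before those ends was not searched. The metal core was chosen after the values were seen. Promoter windows were found for 73 of the 101 called genes.
Gsta2, chr9:78347146-78347395, minus strand: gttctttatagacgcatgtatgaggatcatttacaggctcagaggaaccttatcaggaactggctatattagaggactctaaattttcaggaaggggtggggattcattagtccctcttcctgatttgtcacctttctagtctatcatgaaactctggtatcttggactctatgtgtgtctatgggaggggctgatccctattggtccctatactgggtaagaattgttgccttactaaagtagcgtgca
Ephx1, chr1:181017570-181017819, minus strand: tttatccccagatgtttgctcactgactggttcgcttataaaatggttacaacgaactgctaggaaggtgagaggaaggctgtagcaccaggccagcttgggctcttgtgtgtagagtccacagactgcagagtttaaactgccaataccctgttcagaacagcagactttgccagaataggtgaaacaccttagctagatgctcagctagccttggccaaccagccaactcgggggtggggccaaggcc
Abcc4, chr14:118706220-118706469, minus strand, 1 of 2 starts: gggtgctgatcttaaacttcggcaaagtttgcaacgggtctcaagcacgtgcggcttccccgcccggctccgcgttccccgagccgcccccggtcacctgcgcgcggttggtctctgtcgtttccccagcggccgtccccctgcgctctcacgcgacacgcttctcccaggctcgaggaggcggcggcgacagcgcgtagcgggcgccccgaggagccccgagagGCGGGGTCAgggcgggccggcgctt
Mt1, chr8:94178839-94179088, plus strand: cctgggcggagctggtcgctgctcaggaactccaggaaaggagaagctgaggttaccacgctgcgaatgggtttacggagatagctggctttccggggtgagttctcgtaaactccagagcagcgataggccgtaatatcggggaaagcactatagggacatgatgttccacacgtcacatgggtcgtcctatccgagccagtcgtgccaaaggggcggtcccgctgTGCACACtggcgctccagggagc
Mt2, chr8:94172368-94172617, plus strand: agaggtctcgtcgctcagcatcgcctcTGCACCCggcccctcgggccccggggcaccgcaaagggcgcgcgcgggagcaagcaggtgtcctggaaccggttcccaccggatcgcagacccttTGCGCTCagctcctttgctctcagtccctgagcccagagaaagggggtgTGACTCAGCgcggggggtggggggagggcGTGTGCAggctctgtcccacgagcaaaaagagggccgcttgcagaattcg

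The antioxidant core was found in Abcc4, at bases -25 to -17 from the start on the opposite strand, and in Mt2, at -79 to -71. It was not among the letters of the Gsta2, Ephx1 and Mt1 windows, while 10.2% of the 32851 windows in the table hold it. The metal core occurred 3 times in the Mt2 window and 1 time in the Mt1 window, at -23 to -17. It also occurred 2 times in Abcc4 and 1 time in Gsta2, which are not capitalised, and is present in 21.4% of all windows. Of the other motifs searched on both strands, CACGTG occurred in Abcc4 (6.02% of all windows), AGAACA in Ephx1 (16.1%) and TATAAA in Gsta2 and Ephx1 (12.4%), whereas AGGTCA (14%) and GTTAAT (6.43%) occurred in none of the 5. No binding was measured.

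The called targets of p53 also rose. Of the 16 tested genes of the list, 3 were higher and 0 lower in edgeR (0.265% of all genes were higher) and 6 and 0 in DESeq2 (1.12%), 13 had a log2 difference above 0 and the median was 0.40 (0.43 without WT replicate 3). Cdkn1a, the cell cycle inhibitor p21 (chr17:29090976-29100727), had 11.5, 17.4, 12.3, 10.4 and 19.4 CPM in Akita and 5.48, 2.56, 3.12, 3.53 and 4.28 CPM in WT. The lowest Akita mouse had nearly double the highest WT mouse. Its log2 difference was 1.88 (SE 0.24, adjusted p = 0.003725, edgeR). Phlda3, a repressor of Akt, rose by 1.50 (3.57 to 6.26 against 1.04 to 2.17 CPM), and Eda2r, a receptor of the TNF family, by 2.85 (0.964 to 3.77 against 0.153 to 0.642 CPM). The call of Eda2r was lost without any of 5 libraries. Gdf15, a stress cytokine, had a log2 difference of 1.25 (95% interval 0.66 to 1.84) and was not called in edgeR (adjusted p = 0.06643) but was in DESeq2 (0.002462). Cdkn1a also belongs to the tubular injury list, in which it rose and Il34 fell among 34 genes tested, with 26 above 0 and a median of 0.41 (4 higher and 1 lower in DESeq2). Spp1, the osteopontin of injured tubules, averaged 534 CPM in Akita mice against 260 CPM in WT mice, and passed the threshold without WT replicate 3 (adjusted p = 0.03964) but not with it (0.05116) in edgeR, and with it in DESeq2 (0.0002756).

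Lists of glucose transport and fatty acid oxidation held called genes that rose, and the lipoprotein list 1 that fell. The counts of called members in these and the following lists can be read against the 0.265% of all genes called higher and the 0.292% called lower in edgeR, and 1.12% and 1.16% in DESeq2. Slc5a10, a sodium-linked transporter of fructose and mannose, rose from 63.5 ± 10.5 to 146 ± 35.8 CPM (log2 difference 1.20, SE 0.18) as the 1 called member of 14 glucose and fructose transporters in edgeR (4 higher and 0 lower in DESeq2). Of these 14, 12 had a difference above 0. The main glucose transporters were not called in edgeR, with 0.75 (95% interval 0.30 to 1.20) for Slc2a2 and 0.17 (-0.14 to 0.48) for Slc5a2, and of these DESeq2 called Slc2a2 (adjusted p = 0.03305). Cyp4a14 and Cyp4a10, fatty acid hydroxylases induced through PPAR-alpha, were the called members among 38 genes of fatty acid oxidation, of which 29 were above 0 (median 0.26, and 0.14 without WT replicate 3) and 5 were higher in DESeq2. Cyp4a14 stood at 222, 109, 139, 839 and 368 CPM in the Akita mice and at 16.1, 17.8, 67.8, 24.4 and 7.75 CPM in WT. Akita replicate 4 was the highest of the Akita mice and WT replicate 3 the highest of the WT mice, still without overlap. The log2 difference was 3.69 (SE 0.68, adjusted p = 0.03626, edgeR), 3.01 without Akita replicate 4 (0.05093) and 4.36 without WT replicate 3. The call was lost without any of 7 libraries, and that of Cyp4a10 without any of 5. Cyp4a10, which like Cyp4a14 has near copies, rose by 1.55 (SE 0.28).

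Lpl, the lipase that releases fatty acids from lipoproteins, fell. Its values were 121, 191, 149, 51.6 and 122 CPM in Akita and 440, 501, 356, 506 and 484 CPM in WT. The highest Akita mouse stayed well under the lowest WT mouse, which was replicate 3. The log2 difference was -1.85 (SE 0.28, adjusted p = 0.01027, edgeR), and Lpl was the 1 called member of 19 lipoprotein genes. In the list of cholesterol and fatty acid synthesis 0 of 31 genes were called in edgeR with all libraries (7 at an unadjusted p under 0.05, 2 lower in DESeq2, and Srebf1 at an adjusted p of 0.05525 in edgeR). Srebf1, Idi1, Fasn and Scd1 were among the members lower without WT replicate 3. The list median of -0.17 moved to -0.30 without WT replicate 3, to -0.05 without WT replicate 4, to -0.08 without WT replicate 2, to -0.11 without WT replicate 5 and to -0.11 without Akita replicate 4.

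In amino acid and vitamin pathways, Bhmt and Ftcd, an enzyme of histidine and folate breakdown, rose among 49 genes of amino acid catabolism (5 higher in DESeq2). Ftcd ranged from 12.0 to 40.7 CPM in Akita and from 6.75 to 13.0 CPM in WT, so that Akita replicate 4 lay within the WT range, and its call was lost without any of 8 libraries. Kynu and Pdxk, the kinase that activates vitamin B6, rose among 14 genes of the kynurenine and vitamin B6 list, of which only 3 had a difference above 0 and whose median was -0.14 (-0.06 without Akita replicate 4, -0.09 without WT replicate 2, -0.21 without Akita replicate 1 and -0.24 without WT replicate 3). The call of Pdxk was lost without any of 6 libraries. Cyp27b1, which makes active vitamin D, rose from 2.12 ± 1.15 to 10.4 ± 3.84 CPM (log2 difference 2.25, SE 0.36) and Stc1, a calcium and phosphate hormone, from 2.83 ± 0.527 to 8.81 ± 3.17 CPM (1.64, SE 0.25). Those 2 were the called members among 23 genes of phosphate, calcium and vitamin D (4 higher in DESeq2). With all 40 libraries in one fit the call of Cyp27b1 was lost, at a log2 difference of 2.26 (adjusted p = 0.1511, edgeR). Sgk1 was the called member among 14 genes of the renin and aldosterone list (2 higher and 1 lower in DESeq2).

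The matrix list and the androgen-responsive list held 2 calls each, of 52 and 35 genes tested, against 0.557% of all genes in edgeR. DESeq2 had 2 higher and 3 lower in the matrix list and 2 higher and 7 lower in the androgen-responsive list. Among the 52 extracellular matrix genes Grem1, an inhibitor of bone morphogenetic proteins, was higher and Col5a2, a fibrillar collagen chain, lower. Grem1 stood at 1.83, 15.0, 7.89, 3.46 and 5.53 CPM in the Akita mice and at most 0.624 CPM in WT, a log2 difference of 4.42 (SE 0.64, adjusted p = 0.008228, edgeR). The Akita mice varied widely, yet all lay above the WT mice. Col5a2 fell by 1.30 on the log2 scale and by 1.07 without WT replicate 3, which was its highest library at 32.9 CPM, and its call was lost without any of 6 libraries. In the androgen-responsive list 0 of 35 genes were higher and 2 lower, with 10 above 0 and a median of -0.49. Hsd11b1, which reactivates glucocorticoids, fell by 1.03 and Srd5a2, a 5-alpha reductase that makes dihydrotestosterone, fell by 1.80. Their calls were lost without any of 7 and 8 libraries respectively, but 5 members were lower without WT replicate 3. Without Akita replicate 4, which had the lowest Kap, the log2 differences were -0.97 for Hsd11b1 (adjusted p = 0.05743) and -1.73 for Srd5a2 (0.06666, edgeR).

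Csf1r, the macrophage receptor for colony stimulating factor and for interleukin 34, was lower in Akita (log2 difference -0.90, SE 0.17, adjusted p = 0.04217, edgeR), with 14.4 to 23.0 CPM against 26.4 to 42.4 CPM in WT. It was called in only 1 of the 10 fits that left out a library, the one without WT replicate 3. It was the 1 called gene of 10 macrophage markers, of which 2 had a difference above 0. The summed level of those markers was 38 to 55 CPM in Akita and 54.9 to 81.0 CPM in WT (two-sided exact permutation test, p = 0.0159, adjusted p = 0.191 over 32 library measures). In bulk cortex, fewer cells of a type and less RNA per cell cannot be told apart. Ly6e, an interferon-inducible membrane protein, fell from 156 ± 59.8 to 52.4 ± 5.88 CPM and was the 1 called gene of 33 interferon and antigen presentation genes.

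Markers of S3 proximal tubule summed to 1639 to 2749 CPM in the Akita mice and 2489 to 4283 CPM in the WT mice, where the lowest value was that of replicate 3 (exact permutation p = 0.0317, adjusted p = 0.203). None of the 9 passed the gene test (edgeR, 7 with an unadjusted p under 0.05, 0 called in DESeq2; their median was -1.0 and 1 was above 0), and without WT replicate 3 Aadat was lower. Principal cell markers summed to 245 to 315 CPM in Akita and 146 to 226 CPM in WT (exact permutation p = 0.00794, the smallest that 5 against 5 allows; adjusted p = 0.191), with 0 of 8 genes called in edgeR, 1 higher in DESeq2 and 4 at an unadjusted p under 0.05. Podocyte markers summed to 467 to 572 CPM in Akita and 379 to 472 CPM in WT (exact permutation p = 0.0238, adjusted p = 0.191), with 0 of 13 genes called in edgeR and in DESeq2 and 2 at an unadjusted p under 0.05. No marker sum passed after adjustment. Of 7 liver markers tested, 0 were called in edgeR or DESeq2 and 3 had an unadjusted p under 0.05. Their median log2 difference ran from 0.27 to 0.85 over all settings. The part of any of these markers in the gene differences was not tested.

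The lists of mitochondrial genes held no calls in edgeR, where 0.557% of all genes were called, so that a count of 0 in lists of this size is near the share over all genes. Of 77 nuclear-encoded subunits of the respiratory chain 0 were called, as were 0 of 36 genes of the TCA cycle, 0 of 13 protein genes of the mitochondrial genome and 0 of 13 genes of coenzyme Q synthesis in edgeR. At an unadjusted p under 0.05 these lists had 0, 2, 0 and 1 genes, and DESeq2 called 0, 1, 0 and 0 of them. Cox6b2, a subunit of cytochrome c oxidase that is in none of these lists and was singled out after its values were seen, was higher by a log2 difference of 1.54 (adjusted p = 0.04037, edgeR). The respiratory chain list had 73 of 77 genes above 0 and a median of 0.18, which fell to 0.04 without WT replicate 3 and to 0.02 without Akita replicate 1, rose to 0.28 without WT replicate 2 and ran from -0.02 to 0.28 over all settings. Its smallest p was that of Ndufa5, an accessory subunit of complex I, with a log2 difference of 0.26 (95% interval -0.05 to 0.57, adjusted p = 0.6873, edgeR). The TCA cycle median moved from 0.16 to 0.01, 0.04 and 0.28 without those same libraries. Chaperones of the endoplasmic reticulum (25 tested, 7 above 0, median -0.27) and cytosolic heat shock proteins (17 tested, 3 above 0, median -0.38) had 0 calls in edgeR, with 8 and 6 genes at an unadjusted p under 0.05 and 2 and 0 lower in DESeq2, and their medians stayed below 0 in all settings (for the endoplasmic reticulum list, -0.12 without Akita replicate 4). Hspa5, the chaperone BiP, had a log2 difference of -0.51 (95% interval -0.86 to -0.17, adjusted p = 0.2384 in edgeR and 0.04021 in DESeq2), and Hsp90aa1 one of -0.53 (-0.92 to -0.14, adjusted p = 0.3097, edgeR).

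**Figure D3:**
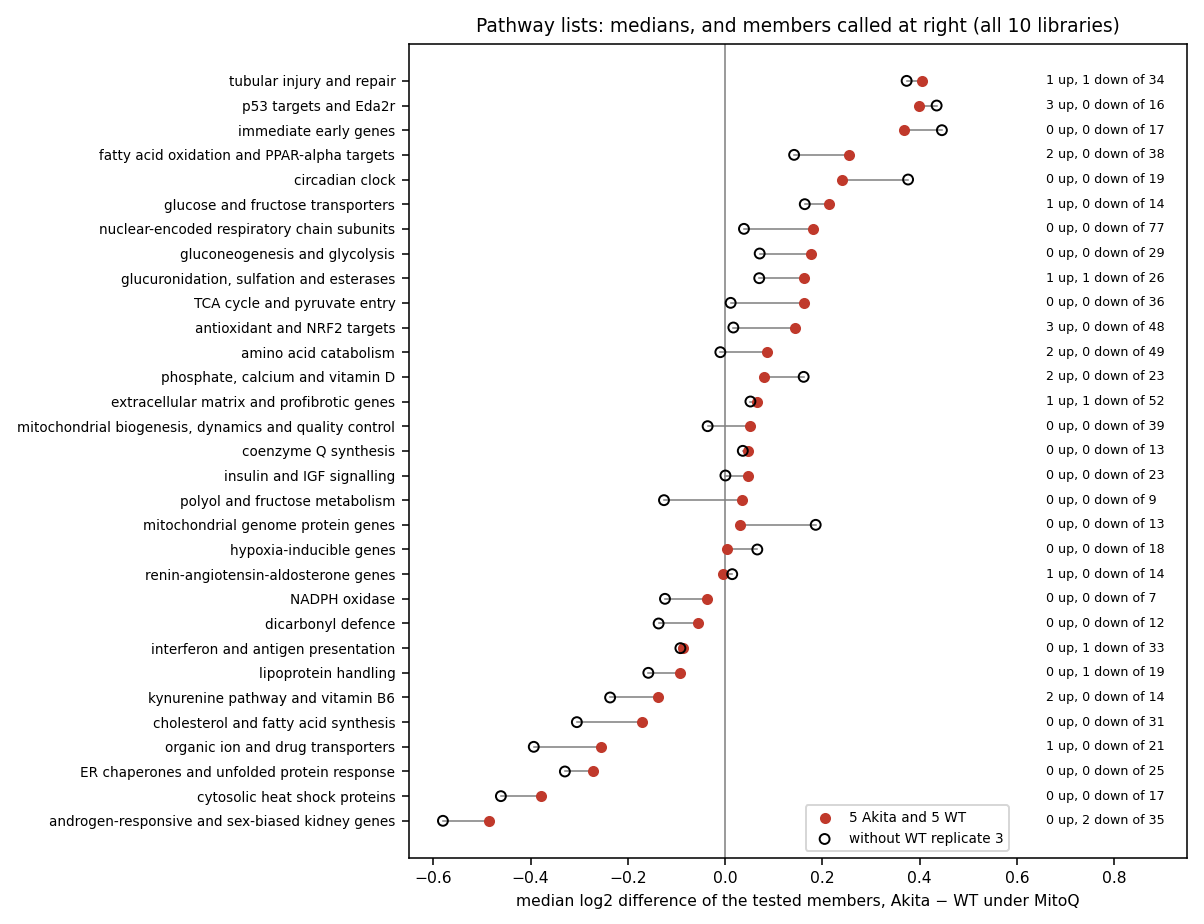
Median log2 difference, Akita minus WT under MitoQ (x axis), of the tested members of each pathway list (y axis), with all 10 libraries (filled) and without WT replicate 3 (open), and the number of members called at the right. The respiratory chain median moves from 0.18 to 0.04 (and to 0.02 without Akita replicate 1, not drawn), whereas the androgen-responsive list stays lowest at -0.49 and -0.58.

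The remaining calls by size and outside the lists included Kif20b, a kinesin of cell division (2.33 to 6.72 CPM in Akita, 9.09 to 20.2 CPM in WT), Mdk, the growth factor midkine (2.16 to 6.23 against 10.4 to 16.6 CPM), and C1qtnf3, an adipokine-like secreted protein of the kidney. C1qtnf3 fell by 1.68, with WT replicate 3 at 30.2 CPM and the other WT mice at 69.1 to 74.7 CPM, and by 1.85 without that library. Outside the 40 genes named by rule, 24 higher genes with a symbol (Mt1, Mt2 and Cox6b2 among them) had log2 differences of 0.57 to 1.97. The 22 lower ones had differences of -2.95 to -0.50, and 15 called genes were predicted genes or pseudogenes.

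The genes called under MitoQ were then followed in the diabetes comparisons of the other arms, which share no library with it or with each other. On water, 101 genes of 18304 were called (0.552%), on the ethanol vehicle 2910 of 17747 (16.4%) and under MitoGamide 2386 of 16674 (14.3%). Of the 48 genes higher under MitoQ, all 48 had the same sign on water, 46 on ethanol and 47 under MitoGamide. The 53 lower genes kept their sign on water and on ethanol, as did the 50 tested under MitoGamide. Over all genes tested in both arms, 63.5%, 68.8% and 69.4% had the same sign. On water 17 of the 48 higher and 27 of the 53 lower genes were called, on ethanol 42 and 50, under MitoGamide 42 and 43, and 0 were called in the opposite direction. Of 98 genes tested in all arms, 40 were called in all 3 other comparisons, and 4 in none, namely Adra1a, Acnat2, Plekhf1 and the predicted gene Gm15318.

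**Figure D4:**
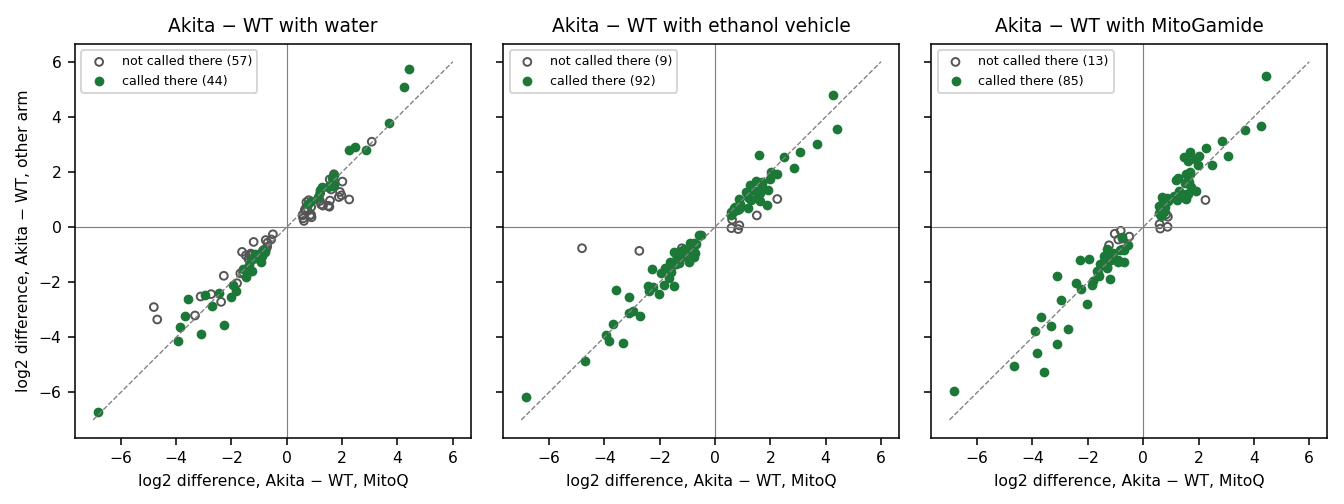
Log2 differences between Akita and WT of the genes called under MitoQ (x axis) against their log2 differences on water, on the ethanol vehicle and under MitoGamide (y axis, 3 panels), with filled points for genes also called there and a dashed line of equality. All points of the water panel lie in the quadrants of equal sign, and 2 and 1 of the higher genes fall just below 0 on ethanol and MitoGamide.

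Levels of the leading genes can be set beside those of the water groups. On a scale shared by all 40 libraries, Il34 was at 1.57 ± 0.26 CPM in Akita mice on MitoQ and 1.77 ± 0.67 CPM on water, with 8.50 ± 0.86 and 9.15 ± 3.68 CPM in the WT mice (mean ± SD, n = 5 each). Kynu was at 31.0 ± 10.0 CPM in Akita mice on MitoQ and 38.1 ± 14.5 CPM on water, and Sgk1 at 139 ± 11.3 and 145 ± 47.4 CPM. Bhmt averaged 3.73 ± 0.46 CPM in WT mice on MitoQ and 8.14 ± 8.70 CPM on water. On water the WT mice ran from 3.02 to 23.6 CPM and the Akita mice averaged 16.1 ± 9.62 CPM, and the log2 difference of 1.00 was not called (adjusted p = 0.8411, edgeR).

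The test of whether the diabetes difference itself changed with MitoQ gave 0 genes (0%) of 18225 in edgeR, 0 in DESeq2 and 0 in limma-voom with sample weights. An unadjusted p under 0.05 was reached by 207 genes, 1.14% of those tested. The median SE of this difference was 0.347 on the log2 scale, so that small changes were not detectable. For the 101 called genes the difference between the arms ran from -1.93 to 1.31, with a median size of 0.21 and a median half-width of the 95% interval of 0.80. The interval was -0.84 to 0.76 for Il34, -0.59 to 0.60 for Sgk1, -1.32 to 0.47 for Kynu and -2.35 to 0.72 for Ugt1a10. Only Phlda3, Rsad1 and Cox6b2 had an unadjusted p under 0.05 among the called genes. The diabetes difference of Phlda3 was 1.50 under MitoQ and 0.77 on water, a change of 0.73 (95% interval 0.13 to 1.34, adjusted p = 1, edgeR), and that of Cdkn1a 1.88 and 1.09, a change of 0.79 (-0.0036 to 1.59).

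**Figure D5:**
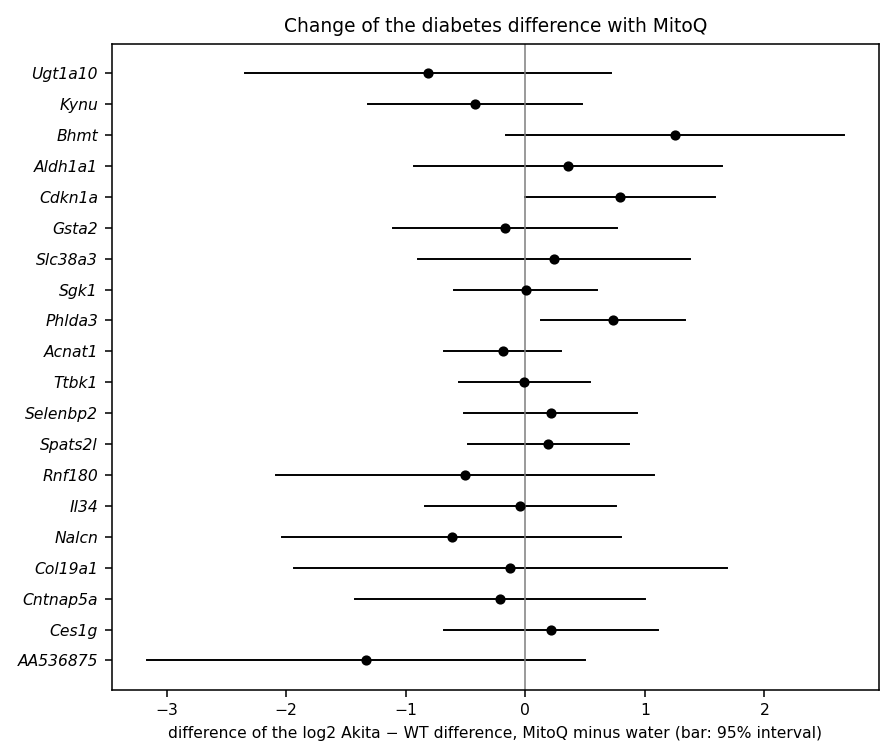
Change of the Akita minus WT log2 difference from water to MitoQ (x axis; points are estimates, bars 95% intervals) for the 10 higher and 10 lower genes with the smallest p under MitoQ (y axis; predicted genes and pseudogenes left out). All intervals include 0 except that of Phlda3, 0.13 to 1.34, which is not adjusted for the number of genes.

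Set against the ethanol vehicle, the difference of the diabetes effects gave 0 genes (0%) of 17970 in edgeR, with 670 (3.73%) at an unadjusted p under 0.05, and 4 in DESeq2. Hmox1 (log2 change 1.30 in edgeR), Creld2 (1.25) and Adra1a (0.66) had a more positive difference under MitoQ and Gm4609 (-4.01) a more negative one, with adjusted p in edgeR of 0.3275, 0.5232, 0.3449 and 0.9932. Against MitoGamide it gave 0 genes (0%) of 17469 in edgeR, with 1023 (5.86%) at an unadjusted p under 0.05, and 6 in DESeq2. These 6 included Myrf, Tardbp and Ddo with more positive and H1f4 with more negative differences. Among the genes called under MitoQ, an unadjusted p under 0.05 was reached by 10 of 101 against ethanol and 12 of 99 against MitoGamide. Over all genes tested, 3.73% and 5.86% reached it. Further from 0 under MitoQ were 73 of 101 against ethanol, 60 of 101 against water and 55 of 99 against MitoGamide. The other 28, 41 and 44 were closer to 0. The genes were selected by their MitoQ values, which alone favours larger differences there. No change of the diabetes effect can be read from any of these counts. Against ethanol the change was 1.12 for Sgk1 (95% interval 0.42 to 1.81) and 1.11 for Cdkn1a (0.41 to 1.81), each at an adjusted p of 0.9932 in edgeR. These comparisons with ethanol and MitoGamide differ in vehicle as well as in drug, and both cannot be told apart.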

How the data were processed

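Renal cortex RNA was depleted of ribosomal RNA and sequenced from directional libraries as single reads. Per the labels and the study's methods, the authors used Skewer for trimming, kallisto 0.46.1 for quantification against the mouse transcripts of GENCODE release 25 (GRCm38), and R 4.0.2 for summing by gene. The authors deposited unscaled estimated counts as whole numbers. Whether strand was used is not given in the sources used here, so that overlapping sense and antisense genes may share reads. Il34 overlaps the called antisense gene Gm15895 (chr8:110805638-110807477, plus strand, log2 difference -3.10). Genes averaging 10 or more counts in the libraries compared were tested in R 4.3.3 with edgeR 4.0.16 (TMM, quasi-likelihood test, Benjamini-Hochberg). The study names DESeq2 for its own test; DESeq2 1.42.0 was an alternative here, as were limma 3.58.1 (voom with sample quality weights, added after the data were seen), RLE scaling, other count filters, libraries thinned to the shallowest, the replicate number as a block, all 40 libraries in one fit and each library left out. Standard errors are the log2 difference divided by the square root of F. CPM are TMM-scaled. Positions come from GENCODE release 21, in which 99.5% of identifiers were found, and promoters from RefSeq (GRCm38.p6). The methods were tested on simulated data. Genes were named by rule: the 10 higher and 10 lower called genes with the smallest p, a symbol and no overlap; up to 3 called members per list and those defining it; and the 5 largest differences per direction at a mean of at least 100 counts. Predicted genes were counted, not named, unless they had a result of their own. The members and lists were chosen with earlier results of these data known. Each library is 1 animal. Results for some genes are not reported here.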

Additional observations from a re-analysis of the deposited data

Results flagged for a closer look

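In a group of 5, a library was listed where its gap to the nearest value exceeded 0.71 of the group's range (Dixon). Chance flags about 1 in 20 groups, or 7.2 of the 144 groups examined, and 22 were listed, 11 of them on WT replicate 3. This library had a TMM factor of 0.525 (others 1.00 to 1.11), 46.6% of counts on mt-Rnr1 and mt-Rnr2 (others 20.1% to 25%), 16.6% on CT010467.1 and 72.5% on the 10 most abundant genes. It also had 3220 CPM of Kap (others 7129 to 8059) and 2489 CPM of S3 proximal tubule markers. T cell markers summed to 11.4 CPM and neutrophil markers to 4.58 CPM there. Among named genes it had 30.2 CPM of C1qtnf3, 32.9 CPM of Col5a2 and 67.8 CPM of Cyp4a14. The part of this library's composition in these values was not tested.

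WT replicate 4 had 26.2 CPM of Ces1g, 6.67 CPM of Aldh1a1 and 0.642 CPM of Eda2r, each above the other WT mice, and 13.2 CPM of adipocyte markers. Akita replicate 2 had 1.20 CPM of Cntnap5a, 3.83% of counts on CT010467.1, 15.4 CPM of urothelium markers and 15.9 CPM of adipocyte markers (other Akita mice 0.832 to 2.16 CPM). Single values also stood out in Akita replicate 4 for podocyte markers (572 CPM), replicate 1 for endothelium (628 CPM) and replicate 5 for principal cells (315 CPM).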

How the results depend on the processing

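Genes under a mean of 10 counts were left untested for depth. Total counts of the Akita and WT libraries had a two-sided exact permutation p of 0.0873 (adjusted p = 0.3048 over 32 library measures). The number of calls, 101 in the main test, was 96 with RLE scaling, 111 without a filter, 103 with at least 10 counts in every library and 113 with thinned libraries. These were not all the same genes. Of the 101, those still called were 96 with RLE scaling and 82 without a filter. With at least 10 counts in every library only 74 of them were tested and 73 called, and with thinned libraries 99 were tested and 87 called. DESeq2 called 415, all 40 libraries in one fit 299, and voom with sample quality weights, chosen after the data were seen, 791, and the cause of these changes was not tested. Leaving out each library gave 35 to 270. The replicate block, where same-numbered Akita and WT samples correlated at -0.26, -0.216, 0.394, -0.298 and 0.151 and thus did not pair, called 48 genes, 43 of them among the 101. DESeq2 and voom called all 101. The interaction with MitoQ stayed at 0 in every setting, with the replicate block too, and each library left out gave 0 to 0. DESeq2 gave 4 genes for the difference to the ethanol vehicle and 6 for that to MitoGamide, and without WT replicate 3 edgeR gave 0 for both. Of 710 values for the 40 named genes under alternatives 615 kept their side of the threshold, 95 lost the call and none changed direction. List medians changed sign in some setting for 19 of 51 lists, among them the respiratory chain and the TCA cycle.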
